A study of Mus musculus with 3 samples.

Results

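The BCL2 family genes examined here were 10 regulators of mitochondrial cell death: the survival genes Bcl2, Bcl2l1 and Mcl1, the killer genes Bak1 and Bax, and the BH3-only genes Bcl2l11, Bid, Bbc3, Bad and Pmaip1. They were measured by all probe sets of the array whose annotation named 1 of these symbols and no other gene. This gave 29 of 45101 probe sets, for 9 of the 10 genes, out of 18193 genes named by such probe sets. Bax was not analysed here. The cells were follicular regulatory T (Tfr) cells, the Foxp3-expressing T cells that restrain germinal centres, sorted from spleens of C57BL/6 mice 8 days after OVA immunization. The Rptor-null group was 2 pools of 8 mice each that carried CD4-Cre, which is active in T lineage cells, and floxed Rptor alleles (Rptor fl/fl). Rptor encodes raptor, without which the nutrient-sensing kinase complex mTORC1 does not form. The wild-type (WT) group was 1 pool of 4 mice with no altered gene named, and each pool was hybridised to 1 array.

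BCL2 family proteins decide whether the outer mitochondrial membrane is breached. BCL2, BCL-XL and MCL1 hold the membrane intact by binding their relatives, BAK and BAX form the pores that release cytochrome c, and BH3-only proteins either engage the pore formers or occupy the survival proteins. In T cells the balance between BIM and the survival proteins BCL2 and MCL1 is known to set how long activated and regulatory cells live.

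The survival genes Bcl2 and Mcl1 gave the only calls above WT in the family. A single Bcl2 probe set was 2.12-fold higher in the Rptor-null pools than in the WT pool. Of 6 Mcl1 probe sets, 2 were 1.36-fold and 1.57-fold higher. Another Mcl1 probe set was 1.49-fold lower. A dim probe set of Bid, a BH3-only gene, was also called lower, but its Rptor-null values lay under the intensity needed to enter the test, which it entered through its WT value. No probe set of Bcl2l1, Bcl2l11, Bak1, Bad, Bbc3 or Pmaip1 passed the test. For none of the 9 genes did the brightest probe set pass. The pools also differed in cell markers and RNA measures, and the part of either in these differences was not tested.

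The upstream sequences of the 3 genes with a called probe set are printed here, beside the first of 2 RefSeq stretches for Bcl2l11, the textbook FOXO target of the family, whose probe sets gave no call. Each is a stretch of 250 bases before a RefSeq transcription start, read 5′ to 3′ on the strand of the gene in build GRCm38.p6. Capitals mark matches, on either strand, to 2 of the 6 motifs searched: the GC box GGGCGG and the forkhead motif GTAAACA.
Mcl1: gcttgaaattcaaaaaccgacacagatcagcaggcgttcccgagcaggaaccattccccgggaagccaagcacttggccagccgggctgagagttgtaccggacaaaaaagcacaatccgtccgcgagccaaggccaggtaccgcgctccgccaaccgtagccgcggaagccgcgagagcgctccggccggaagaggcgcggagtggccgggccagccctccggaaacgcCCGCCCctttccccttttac
Bcl2: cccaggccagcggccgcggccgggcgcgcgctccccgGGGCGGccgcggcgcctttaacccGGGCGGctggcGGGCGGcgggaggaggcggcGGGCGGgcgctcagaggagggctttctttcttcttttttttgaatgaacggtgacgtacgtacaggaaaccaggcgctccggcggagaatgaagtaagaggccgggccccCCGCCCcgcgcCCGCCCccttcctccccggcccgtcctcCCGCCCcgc
Bid: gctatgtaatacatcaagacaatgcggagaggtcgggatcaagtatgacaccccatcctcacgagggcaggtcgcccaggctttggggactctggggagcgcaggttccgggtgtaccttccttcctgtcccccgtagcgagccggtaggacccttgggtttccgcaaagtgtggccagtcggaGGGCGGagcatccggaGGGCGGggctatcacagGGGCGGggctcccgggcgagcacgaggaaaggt
Bcl2l11: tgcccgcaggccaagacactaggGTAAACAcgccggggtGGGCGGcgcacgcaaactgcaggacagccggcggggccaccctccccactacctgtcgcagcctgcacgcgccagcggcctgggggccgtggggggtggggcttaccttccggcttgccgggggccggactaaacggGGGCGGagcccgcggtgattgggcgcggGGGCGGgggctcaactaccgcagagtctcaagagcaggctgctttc

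The Mcl1 stretch lies at chr3:95658471-95658720 on the plus strand and holds 1 GC box. The Bcl2 stretch, at chr1:106714291-106714540 on the minus strand, holds 7. The Bid stretch, at chr6:120916825-120917074 on the minus strand, holds 3. The Mcl1 stretch and most of the Bid stretch fall within the RefSeq span of their gene, so they do not lie ahead of the whole gene. The Bcl2l11 stretch, at chr2:128125788-128126037 on the plus strand, holds 3 GC boxes and 1 forkhead match, 227 bases before the start. The other Bcl2l11 stretch, at chr2:128127325-128127574, holds 2 GC boxes and no forkhead match. A GC box was present in 32.7% of the 32851 mouse promoter stretches of this length, and a forkhead match in 3.17%. The 15 stretches searched cover 9 family genes, Bax among them, and no stretch of Pmaip1 was searched. Of these 15, 1 other held the forkhead match, the second of 3 for Bbc3. None of the 15 held the STAT motif TTCNNNGAA (7.02% of all stretches), the cAMP response element TGACGTCA (1.55%) or TATAAA (12.4%). The E-box CACGTG (6.02% of all stretches) was matched in 1 Bax stretch and 1 Bbc3 stretch. These matches describe letters in the sequence and were not tied to any measured difference.

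The arrays differed in which cells' markers they carried. Markers of the labelled cell type were present on all arrays. Foxp3 read 587 and 423 in the Rptor-null pools, against 752 in the WT pool, and Cxcr5 read 374 and 392, against 713 in the WT pool. Summed over 7 T cell genes, intensity was 24800 and 24397 in the Rptor-null pools, against 37897 in the WT pool, with 4 of the 7 called lower. Summed over 9 macrophage and monocyte genes it was 42437 and 47510 in the Rptor-null pools, against 30424 in the WT pool, with 6 of the 9 called higher. These calls are by the brightest probe set of each gene, and by any probe set 7 of the 9 macrophage genes were called. Over 5 basophil and mast cell genes it was 1770 and 2067 in the Rptor-null pools, against 1040 in the WT pool, with 3 called higher. The sum over 6 follicular T cell genes was 4308 and 4282 in the Rptor-null pools, against 8448 in the WT pool, with 5 called lower, and 3 of 6 Treg genes were called lower. Neither B cell, dendritic cell nor neutrophil genes gave a call, and of 5 CD8 and NK cell genes 1 was called higher and 1 lower. Beside these marker counts, 2.81% of all tested probe sets were called higher and 6.11% lower. By the brightest probe set of each of 12721 genes, 500 were called higher and 1411 lower. No marker was at 0 on any array, but 1 B cell and 1 dendritic cell marker had a mean level below the intensity needed to enter the test. In these bulk pools fewer cells of a type and less RNA per cell cannot be told apart, and the part of other cells in the Mcl1, Bcl2 and Bid differences was not tested. Rptor itself read 353 and 412 in the Rptor-null pools, against 365 in the WT pool. Whether this probe set covers deleted exons was not given in the sources used here, so the deletion could not be checked.

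**Figure D1:**
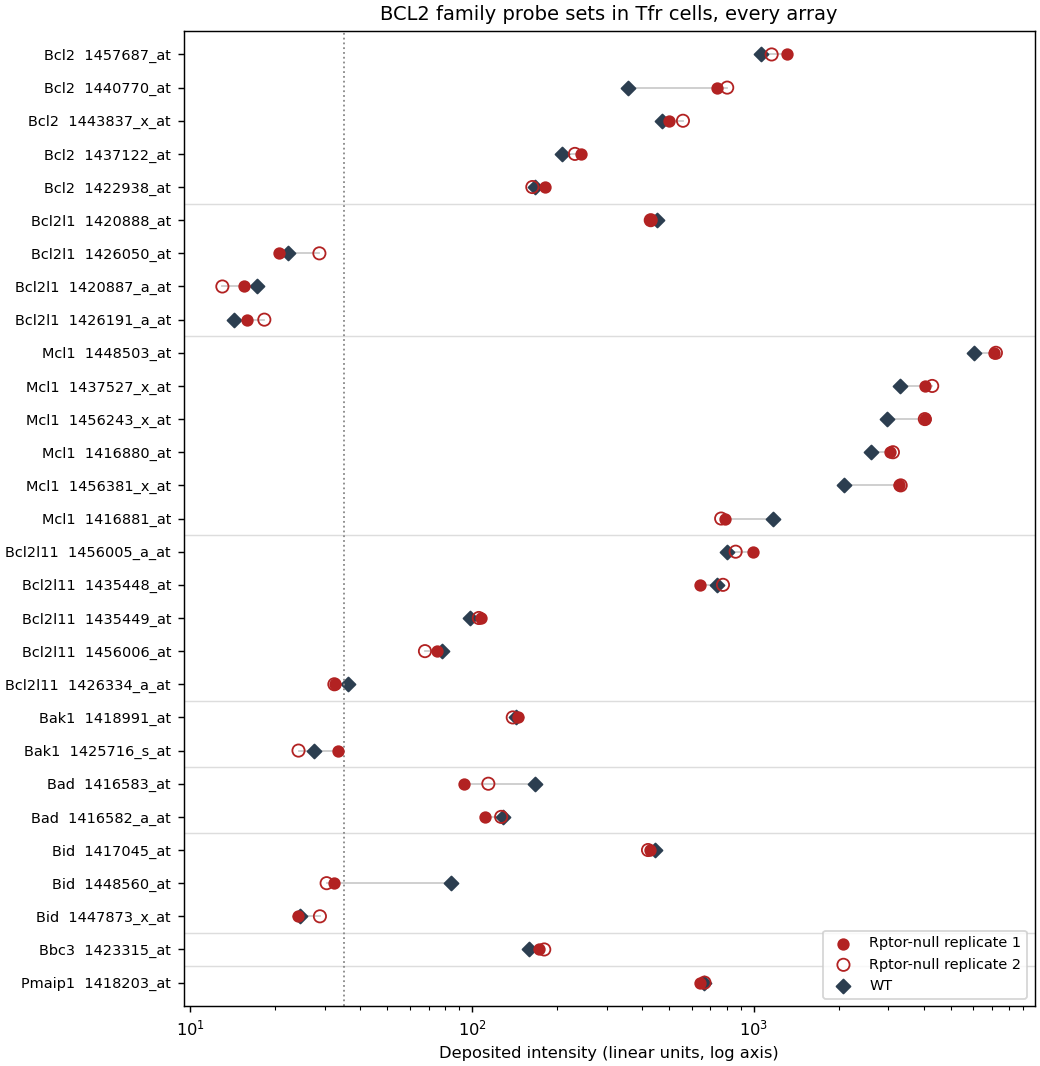
Deposited intensity (linear units, log axis) of all 29 BCL2 family probe sets on each array: filled circles are Rptor-null replicate 1, open circles Rptor-null replicate 2 and diamonds WT. The dotted line is the filter level of 35 intensity units. Bcl2 1440770_at and 5 Mcl1 probe sets lie to the right of WT in both Rptor-null pools, while Mcl1 1416881_at and Bid 1448560_at lie to the left, the Bid values below the dotted line.

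Intensities are the deposited linear values, and differences are Rptor-null minus WT on the log2(intensity + 16) scale, a scale that understates changes of dim probe sets. Of the 29 probe sets, 23 exceeded the filter level of 35 units in the mean of the group means and entered the test, with at least 1 for each of the 9 genes. The other 6, of Bcl2l1, Bcl2l11, Bak1 and Bid, read between 12.98 and 36.24 on every array. The test was limma's moderated test over 27022 probe sets, with Benjamini-Hochberg adjustment and a threshold of 0.05. With 1 WT array, the spread came from the 2 Rptor-null arrays alone, and WT was assumed to vary like them.

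Among the 23 family probe sets, 3 were called higher, 2 lower and 18 did not pass. Without Bid 1448560_at, whose Rptor-null mean lay under the filter level, 4 of 22 were called, 3 higher and 1 lower, or 18.2%. Over all probe sets tested, 2.81% were called higher, 6.11% lower and 8.92% in either direction. Of all calls 31.5% were higher, but 49.1% were after quantile normalization. The family's 5 calls make 21.7%, but they come from 3 genes, and 3 of the 5 are probe sets of Mcl1. By genes, 0 of 9 brightest probe sets passed limma's test adjusted over 12721 genes, against a background of 15.0%. At an unadjusted p of 0.05, 2 of those 9 genes passed, against 29.9% of all genes, and 9 of the 23 probe sets did, against 25.0% of all probe sets. The calls also rested on the mean-variance trend in limma: without it 0 family probe sets and 0.0074% of all probe sets were called. At limma's unadjusted p of 0.05 without the trend, 6 of the 23 family probe sets passed, beside 6293 of all 27022.

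Both Rptor-null pools lay above WT for 12 of the 23 probe sets and below it for 7, and they fell on either side of WT for 4. The backgrounds were 35.8% above and 43.9% below, and 79.6% on 1 side in either direction, against 82.6% in the family. The median difference of the family's 23 probe sets was 0.10, against -0.029 over all tested. Of the 23 differences 13 were above 0, against 46.1% of all tested. After quantile normalization 18 were, against 50.4% of all tested.

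**Figure D2:**
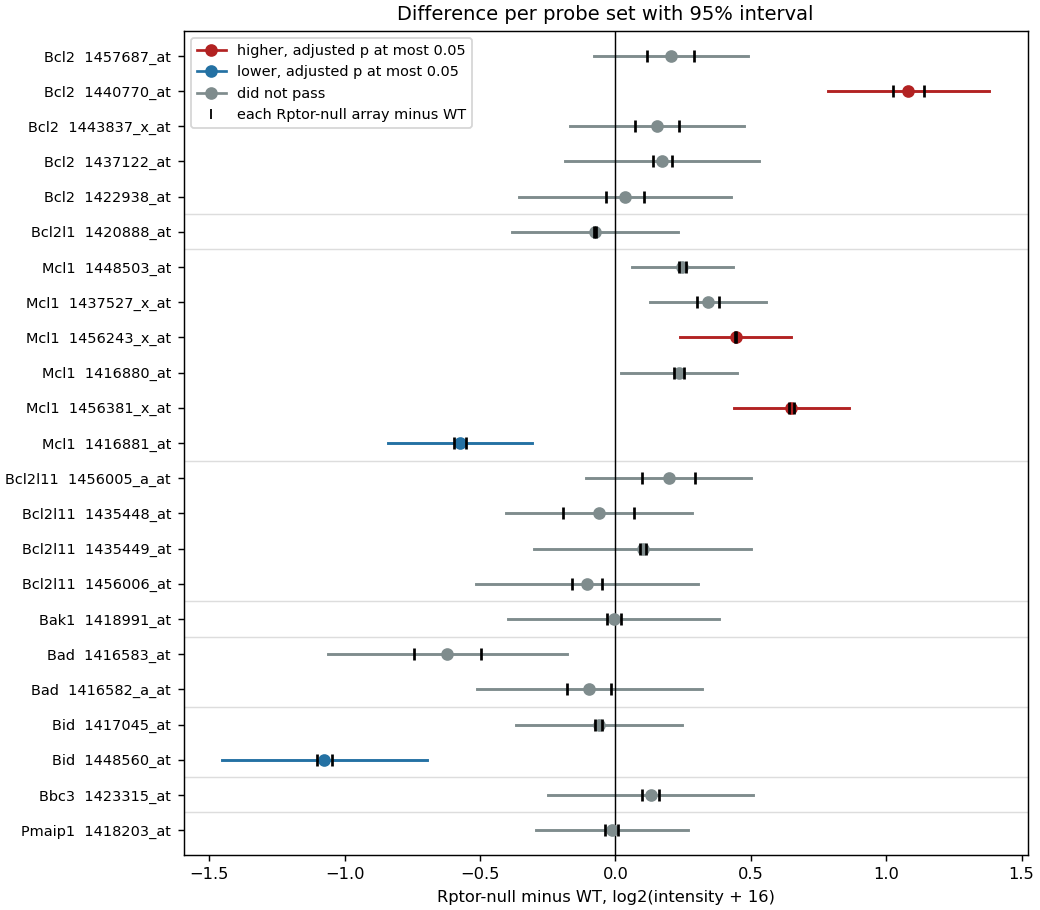
Difference between Rptor-null and WT for the 23 tested probe sets (log2 of intensity + 16), with 95% intervals from limma and a tick for each Rptor-null array. Red marks the 3 higher and blue the 2 lower calls. The intervals of Mcl1 1456381_x_at (0.44 to 0.86) and Mcl1 1416881_at (-0.84 to -0.31) lie on opposite sides of 0.

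Mcl1 encodes a short-lived survival protein that T cells need at every stage. It had 6 probe sets, all among the brightest 20% of those tested. Probe set 1456381_x_at read 3272 and 3314 in the Rptor-null pools, against 2093 in the WT pool. Both Rptor-null pools were above WT and close to each other. The difference was 0.65 ± 0.090 (SE), or 1.57-fold higher, with limma's adjusted p = 0.0130. Probe set 1456243_x_at read 4042 and 4037 in the Rptor-null pools, against 2965 in the WT pool, a difference of 0.44 ± 0.086 (SE; limma adjusted p = 0.0283). Both of these names end in _x_at, the array maker's mark for probe sets whose probes can also match other sequences.

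Mcl1 probe set 1448503_at, the brightest of the gene, read 7095 and 7216 in the Rptor-null pools, against 6025 in the WT pool. It was higher in both pools, by 0.25 on the log2 scale (95% interval 0.060 to 0.43), and did not pass (limma adjusted p = 0.104). Probe set 1437527_x_at read 4044 and 4288 in the Rptor-null pools, against 3283 in the WT pool (limma adjusted p = 0.0629). Probe set 1416880_at read 3027 and 3111, against 2607 in the WT pool (limma adjusted p = 0.166). All 5 of these Mcl1 probe sets thus had both Rptor-null values above WT, by 0.23 to 0.65, and 2 of the 5 passed.

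Mcl1 probe set 1416881_at ran the other way. It read 789 and 764 in the Rptor-null pools, against 1164 in the WT pool. Both Rptor-null values were below WT, by 0.57 ± 0.11 (SE), or 1.49-fold lower, with limma's adjusted p = 0.0284. After quantile normalization this call was lost (adjusted p = 0.0653). In the platform annotation 1416881_at, 1416880_at and 1448503_at share 1 sequence record, so probe sets drawn from the same record differed in direction. Averaged over its 6 probe sets, Mcl1 differed by 0.22 (95% interval 0.022 to 0.43; limma adjusted p = 0.135 over genes).

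All calls given here, in Mcl1 and in every other gene, stood on arrays that also differed in RNA measures. For Gapdh, 3′ probes were brighter than 5′ probes by a ratio of 1.94 and 2.58 in the Rptor-null pools, against 1.11 in the WT pool. For beta-actin this ratio was 2.65 and 2.87 in the Rptor-null pools, against 1.40 in the WT pool. Where each probe set lies along its transcript was not given in the sources used here. The part of these ratios in the differences of Mcl1, Bcl2, Bid or any other gene was not tested.

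Bcl2, the founding survival gene of the family, had 5 tested probe sets and 1 call. Probe set 1440770_at read 741 and 803 in the Rptor-null pools, against 356 in the WT pool. Both Rptor-null values were more than double the WT value in intensity units. The difference was 1.08 ± 0.13 (SE), or 2.12-fold higher, with limma's adjusted p = 0.0106. It was 1 of 106 probe sets, 0.392% of those tested, that were at least 2-fold higher in both Rptor-null arrays on the log2(intensity + 16) scale. In either direction 1.05% reached that size, and 0.659% did so downwards.

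The other 4 Bcl2 probe sets did not pass. Probe set 1457687_at, the brightest, read 1304 and 1155 in the Rptor-null pools, against 1063 in the WT pool, a difference of 0.20 (95% interval -0.079 to 0.49; limma adjusted p = 0.348). Probe set 1443837_x_at read 498 and 559, against 473 in WT, and 1437122_at read 243 and 231, against 209 in WT. All 3 had both Rptor-null values above WT, by 0.15 to 0.20 on the log2 scale. Probe set 1422938_at, the member drawn from the RefSeq transcript, read 181 and 163 in the Rptor-null pools, against 168 in the WT pool, so its groups overlapped. The upper limits of the 95% intervals of these 4, 0.43 to 0.53, lay below the lower limit of 0.78 for 1440770_at. Each of the 5 probe sets comes from a different sequence record.

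Bcl2l1 encodes BCL-XL, the survival protein often induced on T cell activation. Its 1 tested probe set, 1420888_at, read 427 and 430 in the Rptor-null pools, against 452 in the WT pool. The difference was -0.076 (95% interval -0.38 to 0.23; limma adjusted p = 0.773), and its direction turned after quantile normalization, to 0.037. The 3 other Bcl2l1 probe sets read under 29 units on every array.

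Bcl2l11 encodes BIM, the BH3-only protein that drives the death of cytokine-deprived T cells. Probe set 1456005_a_at read 989 and 861 in the Rptor-null pools, against 803 in the WT pool, a difference of 0.20 (95% interval -0.11 to 0.50). Probe set 1435448_at read 644 and 776 in the Rptor-null pools, against 739 in the WT pool, so the pools lay on either side of WT. The dimmer 1435449_at read 108 and 106, against 98.3 in WT, and 1456006_at read 74.9 and 68.0, against 77.9 in WT. None of the 4 passed, with limma adjusted p-values from 0.406 to 0.840. Their differences ran from -0.11 to 0.20, with 2 above 0 and 2 below.

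Bid encodes a BH3-only protein that caspase-8 cleaves, which links death receptors to mitochondria. Probe set 1448560_at read 32.3 and 30.4 in the Rptor-null pools, against 83.8 in the WT pool. The Rptor-null values were below the filter level of 35 units, so this probe set entered the test through its WT value. A probe set let in by its higher group alone had to differ, so its call (limma adjusted p = 0.0152) carries little weight, and no fold is given against so dim a level. The size of its difference moved with the pseudocount, being -1.08 with 16 and -0.63 with 64. With no filter on any probe set, limma's adjusted p was 0.0288. Probe set 1417045_at shares its sequence record and did not move with it: 427 and 420 in the Rptor-null pools, against 443 in the WT pool. That difference was -0.063 (95% interval -0.37 to 0.24; limma adjusted p = 0.815) and turned to 0.050 after quantile normalization. A call for Bid by the mean of its tested probe sets (-0.57) rests on 1448560_at and adds nothing to it.

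Bad encodes a BH3-only protein held inactive by growth factor signalling through phosphorylation. Probe set 1416583_at read 93.5 and 114 in the Rptor-null pools, against 168 in the WT pool. Both pools were lower, by 0.62 ± 0.19 (SE), and the difference did not pass (limma adjusted p = 0.0893). Probe set 1416582_a_at, from the same sequence record, read 111 and 127 in the Rptor-null pools, against 128 in the WT pool, a difference of -0.096 (limma adjusted p = 0.790).

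Bbc3 and Pmaip1 encode PUMA and NOXA, BH3-only proteins induced by p53, and NOXA binds MCL1 in particular. Bbc3 1423315_at read 172 and 180 in the Rptor-null pools, against 160 in the WT pool, a difference of 0.13 (95% interval -0.25 to 0.51; limma adjusted p = 0.681). Pmaip1 1418203_at read 645 and 667 in the Rptor-null pools, against 663 in the WT pool, so the pools lay on either side of WT. Its difference was -0.014 (95% interval -0.30 to 0.27; limma adjusted p = 0.959).

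Bak1, the pore-forming member measured here, read 145 and 139 on 1418991_at in the Rptor-null pools, against 143 in the WT pool. The groups overlapped, with a difference of -0.0066 (95% interval -0.40 to 0.38; limma adjusted p = 0.986). A second Bak1 probe set read 33.4 and 24.2, against 27.4 in WT, and did not enter the test. For Bak1, Bbc3, Pmaip1 and Bcl2l1, the intervals leave out changes of 2-fold or more in either direction, but a smaller change could not be told from none with these 3 arrays.

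Genes that act around the family were taken from 8 lists of 70 genes, of which 54 had a tested probe set. Among their 122 probe sets 0 were called higher and 4 lower, or 3.28%, against 8.92% of all tested, and 28 reached an unadjusted p of 0.05 in limma, against 25.0% of all tested. The 4 were probe sets of Birc5, Cycs, Casp6 and Casp8. Their median difference was -0.031, beside -0.029 over all probe sets tested.

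**Figure D3:**
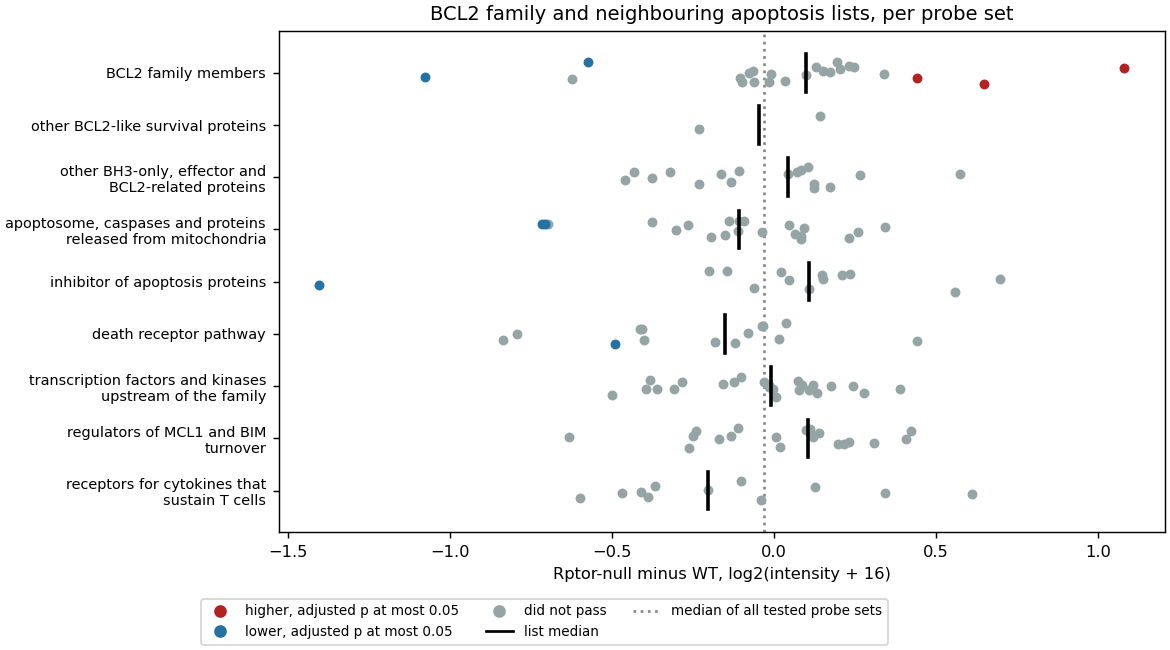
Difference between Rptor-null and WT (log2 of intensity + 16) for each tested probe set of the BCL2 family and of the 8 neighbouring lists. Black bars are list medians and the dotted line is the median of all tested probe sets, -0.029. The 3 higher calls are in the BCL2 family, and the 4 calls in the other lists are lower, with Birc5 at -1.40.

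Steps after the membrane is breached held 2 of those calls. Cycs encodes cytochrome c, whose release starts the caspase cascade. Its probe set 1422483_a_at read 1089 and 1051 in the Rptor-null pools, against 1767 in the WT pool, 1.64-fold lower (limma adjusted p = 0.0148). The other Cycs probe sets differed by -0.092 and -0.035 and did not pass. Casp6, an executioner caspase, read 254 and 228 on 1415995_at in the Rptor-null pools, against 403 in the WT pool, 1.63-fold lower (limma adjusted p = 0.0357). Its dimmer probe set 1458715_at differed by 0.084 and did not pass. Of the list's 21 tested probe sets, 19 did not pass. They included those of Dffb, a DNase of dying cells (-0.70 on the dim 1421229_at and -0.30 on 1437051_at), and Aifm1, a mitochondrial flavoprotein (-0.37).

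Among inhibitor of apoptosis genes, Birc5 was the 1 call in 13 probe sets. Birc5 encodes survivin, a protein of mitosis that is high in dividing cells. It read 254 and 215 in the Rptor-null pools, against 645 in the WT pool, a difference of -1.40 ± 0.16 (SE; limma adjusted p = 0.0103). Xiap, the direct caspase inhibitor, read 381 and 282 on 1456088_at in the Rptor-null pools, against 217 in the WT pool, a difference of 0.56 (limma adjusted p = 0.134). Its brightest probe set differed by 0.15, and neither passed. Birc3 read 2399 and 2496 on its brightest probe set in the Rptor-null pools, against 2078 in the WT pool, and did not pass (limma adjusted p = 0.184).

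In the death receptor list 1 of 14 probe sets was called and 11 had both Rptor-null values below WT, against 43.9% of all tested probe sets. The 1 probe set with both values above WT was that of Tnfrsf1a, a TNF receptor. It read 1152 and 1367 in the Rptor-null pools, against 918 in the WT pool, a difference of 0.44 (limma adjusted p = 0.0894). Casp8, the initiator caspase that cleaves BID, read 1310 and 1394 in the Rptor-null pools, against 1906 in the WT pool, 1.41-fold lower (limma adjusted p = 0.0357). Fasl, the ligand of the death receptor FAS, read 118 and 88.5 on 1418803_a_at in the Rptor-null pools, against 195 in the WT pool (limma adjusted p = 0.0520). Its other probe set differed by 0.038. Tradd, an adaptor of TNF receptors, differed by -0.79 on 1429117_at (limma adjusted p = 0.0540), and Cflar, which restrains caspase-8, by -0.41 on 1449317_at (limma adjusted p = 0.0932), with its other 4 probe sets between -0.18 and 0.016.

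The remaining relatives and regulators gave 0 calls in limma. Of 17 probe sets of other BH3-only and BCL2-related genes, 3 reached an unadjusted p of 0.05, against 25.0% of all probe sets. The BH3-only gene Bmf read 108 and 145 in the Rptor-null pools, against 78.8 in the WT pool, a difference of 0.58 (limma adjusted p = 0.144). Bcl2l13 differed by -0.46 on 1424406_at and by 0.11 on its brighter probe set 1429539_at, where both Rptor-null values were above WT. The survival gene Bcl2l2 differed by -0.23 and 0.14 on its 2 probe sets, neither at an unadjusted p of 0.05.

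Upstream factors and kinases had 24 probe sets, 5 of them at an unadjusted p of 0.05, a level reached by 25.0% of all probe sets. Foxo3, an activator of Bcl2l11 transcription, differed by 0.13 and 0.075 on its 2 probe sets, and Foxo1 by -0.36 to -0.12 on 3. Genes of MCL1 and BIM turnover had 20 probe sets, 2 of them at an unadjusted p of 0.05. Btrc, a ubiquitin ligase subunit, differed by -0.63 on 1425680_a_at (limma adjusted p = 0.0569), while its other 3 probe sets differed by 0.20, 0.23 and 0.019. Gsk3b, a kinase that marks MCL1 for degradation, differed by 0.42 on 1439949_at (limma adjusted p = 0.0956), while the 6 Gsk3b probe sets ran in both directions. Receptors of sustaining cytokines had 11 probe sets, 4 of them at an unadjusted p of 0.05. Both Rptor-null arrays lay below WT for 6 of the 11 and above it for 3, against 43.9% and 35.8% of all tested. Il15ra differed by -0.60 on 1422397_a_at (limma adjusted p = 0.0788) and by -0.39 on 1448681_at. Il2rb differed by -0.41 on 1417546_at (limma adjusted p = 0.128) and by -0.10 on 1448759_at. Il7r, whose signal is known to raise BCL2, read 4417 and 3934 on its brightest probe set in the Rptor-null pools, against 3812 in the WT pool. Its probe set 1448576_at read 1424 and 931 in the Rptor-null pools, against 749 in the WT pool, a difference of 0.61 that did not pass (limma adjusted p = 0.153). The gene of CD25, Il2ra, by which the cells were sorted, read 366 and 348 in the Rptor-null pools, against 464 in the WT pool (limma adjusted p = 0.147).

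**Figure D4:**
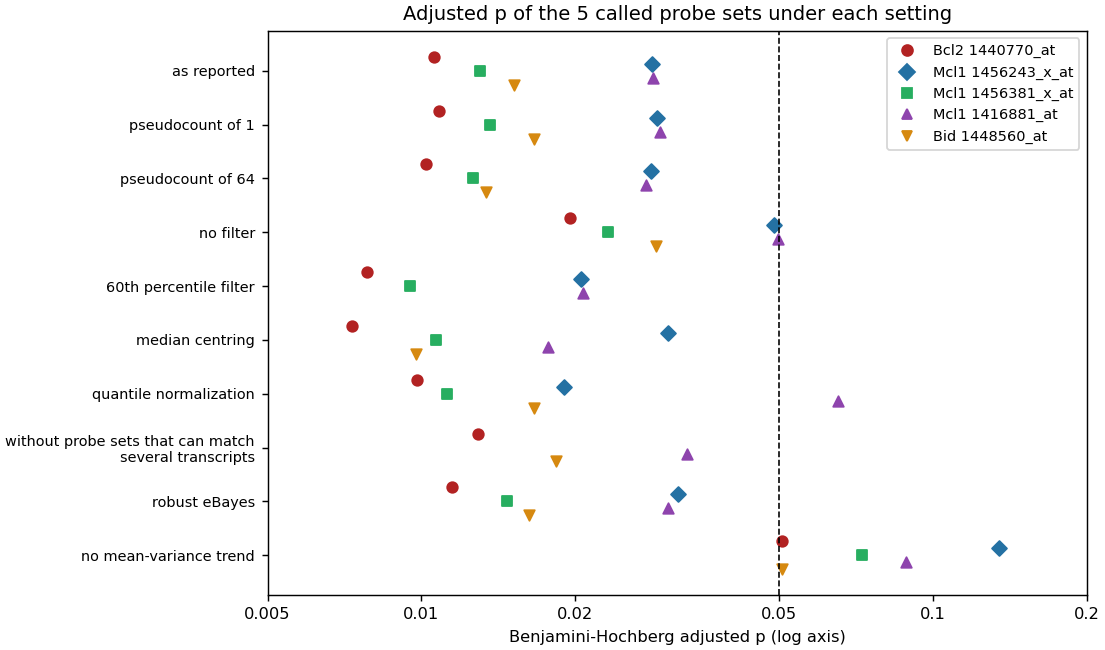
Benjamini-Hochberg adjusted p (log axis) of the 5 called family probe sets under the reported setting and 9 others, with the threshold of 0.05 dashed. A missing symbol means that the probe set was left out under that setting. Without the mean-variance trend all 5 lie to the right of the threshold, the lowest at 0.0507, and after quantile normalization Mcl1 1416881_at does.

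Across the settings in the plot of adjusted p, Bcl2 1440770_at and Mcl1 1456381_x_at passed wherever they were tested, except without the trend, where their adjusted p was 0.0507 and 0.0726. Differences over all probe sets depended on brightness: the median was 0.052 in the dimmest 20% and -0.11 in the brightest 20%, where all Mcl1 probe sets and Bcl2 1440770_at lie. The arrays were alike in their median intensity, 55.0 and 54.9 in the Rptor-null pools and 52.8 in the WT pool.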

How the data were processed

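Gene expression was measured on single-colour Affymetrix arrays, 2 of Rptor-null pools and 1 of a WT pool, from 100 ng of total RNA each, per the labels. The values deposited by the authors were linear probe-set intensities with like medians on the 3 arrays, and the authors' software is given as MAS5, without a version, per the submitters' processing notes. Background correction, scaling target and summary method were not given in the sources used here. The small number of arrays sets the precision.

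Gene names came from the platform's annotation, where 34945 probe sets named 1 gene, 932 several and 9160 none, and 64 control probe sets were set aside. Intensities were converted to log2(intensity + 16). A probe set was tested if its mean over both groups exceeded the 40th percentile, 35 units. Differences were fitted to the 27022 kept probe sets with limma 3.58.1 under R 4.3.3, with a mean-variance trend in eBayes, two-sided, with 1 residual and 5.85 prior degrees of freedom, and adjusted by the Benjamini-Hochberg method. The fit was also run on simulated arrays in which WT varied like the Rptor-null arrays. That run could not check whether the WT array of these data did so. The p-values set each difference against a spread taken from 2 Rptor-null pools labelled as biological replicates and moderated over all tested probe sets. WT, 1 pool of 4 mice against 8 in each Rptor-null pool, was assumed to vary like them. The sources used here gave no batch.

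The family members, the lists and the tests were chosen with earlier results of these data known. Named genes were all family members and genes ranked first in each other list. Up to 4 genes per list were ranked by the lesser of their differences in the Rptor-null arrays when both lay on 1 side of WT. Of these ranked genes, Bik, Bok, Birc6, Mapk8, Stat5b, Ddit3, Huwe1 and Usp9x were not described in the Results, and none was called. Other probe sets of a listed gene, Foxo3, Tnfrsf1a and the marker genes were named after their values were seen. Family genes were matched by symbol, and list genes also through their Entrez ID in RefSeq. Promoter sequences are those of RefSeq for build GRCm38.p6, the first 250 bases of each entry, and 32851 entries served as their background. The closing section gives 13 alternatives to these choices and 1 chosen after seeing the data.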

Additional observations from a re-analysis of the deposited data

How the results depend on the processing

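Over the 11 alternatives that allow a test, 202 of 217 values of the family, by probe set or by gene, kept their direction and their side of the threshold, 3 newly passed, 6 no longer passed and 6 turned direction. The 6 were small: Bcl2 1422938_at was -0.0094 after median centring, and after quantile normalization Bcl2l1 1420888_at was 0.037, Bcl2l11 1435448_at 0.063, Bak1 1418991_at 0.032, Bid 1417045_at 0.050 and Pmaip1 1418203_at 0.11. Newly past the threshold were Mcl1 1437527_x_at, with the filter at the 60th percentile (limma adjusted p = 0.0466) or quantile normalization (0.0366), and Bid by its mean (0.0242). The cause of these shifts was not tested.

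Counts of family calls, higher and lower, were 3 and 2. They were 4 and 1 with the 60th percentile filter, which leaves Bid 1448560_at out, and 4 and 1 after quantile normalization. With 1 probe set per gene they were 0 and 0 for the brightest and 0 and 1 for the mean, without probe sets that can match several transcripts 1 and 2, and without the trend 0 and 0. Without Bid 1448560_at, left out after seeing the data, they were 3 and 1. Over all probe sets 759 calls were higher and 1651 lower. In their place there were 454 and 969 without the filter, and 882 and 915 after quantile normalization (49.1% of calls higher, against 31.5%). There were 500 and 1411 for the brightest and 467 and 1365 for the mean. Without probe sets that can match several transcripts there were 467 and 857, and without the trend 1 and 1. Probe sets with both Rptor-null arrays on 1 side of WT numbered 33655 without the filter, against 21518, and with 1 probe set per gene 10369 for the brightest and 10273 for the mean, with 7 family genes in each case against 19 family probe sets.

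Leaving out either Rptor-null array left 1 array a group and no residual degree of freedom, so no test was run. The single differences of the 5 called probe sets kept their direction, from 1.03 to 1.14 for Bcl2 1440770_at and from -1.10 to -1.05 for Bid 1448560_at. No paired analysis was possible because the WT group has 1 array without a replicate number. All 5 calls rest on the spread of 2 arrays and on 1 WT array.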

Other observations

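Disagreement among probe sets of 1 gene, as in Mcl1 and Bid, was counted over the whole array. Of 5635 genes with several tested probe sets, 227 had several calls, and 10 of these 227, or 4.41%, had calls in both directions, Mcl1 among them. Where several tested probe sets of a gene came from 1 sequence record and any was called, as for Bid and Mcl1, the record also held an uncalled probe set in 359 of 430 cases, or 83.5%. Calls in both directions within 1 record occurred in 2 cases, neither of them a family member, since the Mcl1 probe sets called higher have no record in the annotation.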
